A study of Mus musculus with 4 samples.

Results

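The genes that write, maintain, remove and read DNA methylation were followed in 2 cell populations of the mouse proximal intestinal epithelium. The set was defined by name as 10 genes: the methyltransferases Dnmt1, Dnmt3a and Dnmt3b, the maintenance partners Uhrf1 and Hells, the oxidases Tet1, Tet2 and Tet3, the glycosylase Tdg and the methyl-CpG reader Mbd2. Of these, 7 genes had at least 1 probe set that the platform annotation ties to that gene alone, and together they held 16 probe sets out of 20380 of this kind, or 7 of 12393 genes. Tdg was represented only by 3 probe sets shared with pseudogenes, which are given apart below. Tet2 and Tet3 had no listed probe set, so the RNA of these 2 genes was not analysed here.

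RNA was measured on 4 Affymetrix arrays, 2 per group. The stem group held Lgr5(hi) cells, the stem cells of the crypt base, flow-sorted from wild-type C57BL/6 mice. The enterocyte group held villus cells released with EDTA from C57BL/6 mice in which Atoh1 had been deleted conditionally in the gut lining; Atoh1 is the transcription factor that secretory cells need. All mice were 4 to 6 weeks old, and the labels of all 4 samples, wild-type ones included, give tamoxifen at 1 mg per day for 5 days and a wait of 5 days. The Cre driver and the deleted part of Atoh1 are not given in the sources used here. Cell type, genotype and isolation method change together between the groups and cannot be told apart. The labels call the samples of a group biological replicates without naming animals, so p-values measure the spread between these samples only. In such bulk RNA, fewer cells of a type and less RNA per cell also cannot be told apart.

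DNA methylation in mammals sits mainly on cytosines of CpG dinucleotides. Dnmt3a and Dnmt3b place it on unmethylated DNA. After replication, Uhrf1 recognises the half-methylated sites and brings Dnmt1 to copy the mark to the new strand, and the chromatin remodeller Hells helps these enzymes reach packed DNA. Tet enzymes oxidise the methyl group, Tdg cuts out oxidised bases so that repair can restore plain cytosine, and Mbd2 binds methylated CpG and recruits a repressor complex. In the intestine, Dnmt1 is best known from dividing crypt cells, where each S phase calls for the mark to be copied.

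Promoter windows of 9 of the 10 genes were available from RefSeq (GRCm38.p6), 14 windows in all, each running from 250 bases before to 50 bases after an annotated start. They were searched on both strands for 3 forms of the E2F site, the element through which many S phase genes are switched on: TTTCGCGC, TTTGGCGC and TTTCCCGC. A match was found in the windows of Dnmt1, Uhrf1 and Hells and in no window of Dnmt3a, Dnmt3b, Tet1, Tet2, Tet3 or Tdg. Over all 27025 genes of the table, 2.12% had a match in at least 1 window (1.84% of 32851 windows). Each of the 3 forms itself holds a CpG, and this share was not matched for the CpG content of the windows. Genes with several starts, such as Dnmt1 and Dnmt3a with 3 each and Uhrf1 with 2, had more windows to match in, and the first and second Dnmt3a windows overlap. No match overlapped another. On the strand of the gene, the matched Dnmt1 window lies downstream of the other listed Dnmt1 starts. The matched Uhrf1 window likewise lies downstream of the other listed Uhrf1 start. The bases shown for these genes may therefore be transcribed from an earlier start. The 250 bases before the start are shown for the 3 genes with a match, the genes whose RNA differed most between the groups, and for Dnmt3b, which was also lower in enterocytes and has none. Sequences run 5′ to 3′ on the strand of the gene, and capitals mark the motif.
Dnmt1, last listed start, chr9:20952624-20952873, minus strand: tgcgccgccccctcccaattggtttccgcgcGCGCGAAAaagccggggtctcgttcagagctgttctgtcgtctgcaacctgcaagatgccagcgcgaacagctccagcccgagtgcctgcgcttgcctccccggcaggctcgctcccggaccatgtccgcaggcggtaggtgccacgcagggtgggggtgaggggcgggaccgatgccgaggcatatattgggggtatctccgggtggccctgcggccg
Uhrf1, second listed start, chr17:56304063-56304312, plus strand: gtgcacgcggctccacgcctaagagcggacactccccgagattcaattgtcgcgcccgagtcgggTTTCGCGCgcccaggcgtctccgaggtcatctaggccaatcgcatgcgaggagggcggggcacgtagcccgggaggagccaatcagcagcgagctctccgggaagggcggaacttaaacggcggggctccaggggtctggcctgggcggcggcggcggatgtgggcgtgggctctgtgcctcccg
Hells, chr19:38930740-38930989, plus strand: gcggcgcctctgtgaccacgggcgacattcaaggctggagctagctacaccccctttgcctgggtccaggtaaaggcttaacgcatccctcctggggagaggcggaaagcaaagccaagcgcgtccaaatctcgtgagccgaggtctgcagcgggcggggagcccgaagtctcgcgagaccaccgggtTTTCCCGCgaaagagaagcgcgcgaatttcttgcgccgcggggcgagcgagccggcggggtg
Dnmt3b, chr2:153649199-153649448, plus strand: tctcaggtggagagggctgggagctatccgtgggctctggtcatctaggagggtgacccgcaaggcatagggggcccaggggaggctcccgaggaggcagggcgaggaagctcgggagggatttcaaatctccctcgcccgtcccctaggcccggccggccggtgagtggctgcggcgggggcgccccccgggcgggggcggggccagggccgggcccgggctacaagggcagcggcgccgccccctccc

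The Dnmt1 match began 219 bases before its start and lies on the opposite strand, so it reads as the reverse complement of TTTCGCGC, and a TTTGGCGC match lay at bases 34 to 41 after that start. The Uhrf1 match, TTTCGCGC, began 185 bases before the start, and the Hells match, TTTCCCGC, began 62 bases before it. These windows were also rich in CpG, the substrate of the enzymes themselves. The matched Dnmt1 and Uhrf1 windows each held 33 CpG and the Hells window 34, more than 91.4% and 92.3% of all windows, whose median was 7. Tet2 had 57 CpG, and the first 2 Dnmt3a windows had 46 and 47. The other Dnmt1 windows held 2 and 12. A match is a description of the letters in a window and says nothing on whether E2F binds there in these cells.

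**Figure D1:**
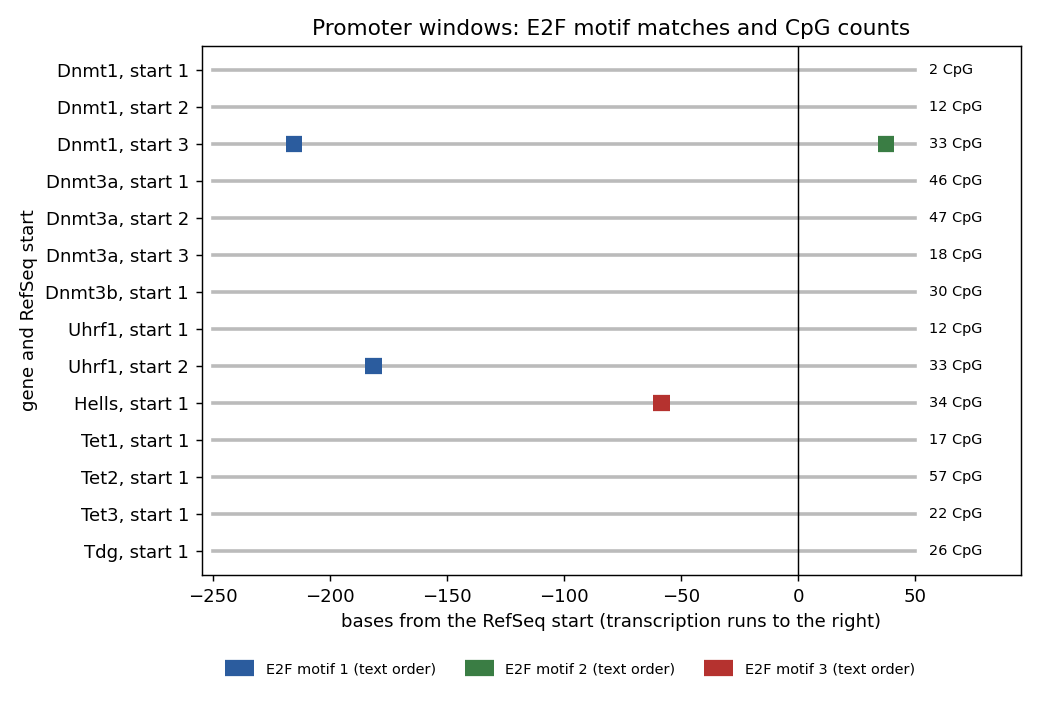
E2F motif matches in the 14 RefSeq promoter windows of the DNA methylation genes, plotted by distance in bases from the annotated start (0). Coloured blocks are matches, drawn to scale and numbered in the order in which the text names the motifs, and the CpG count of each window stands at the right; matches appear only in 1 window each of Dnmt1, Uhrf1 and Hells.

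The maintenance genes Dnmt1, Uhrf1 and Hells fell in the enterocyte arrays, by 5.96-fold, 5.83-fold and 9.03-fold. The de novo enzyme Dnmt3b fell 2.99-fold. Dnmt3a did not pass the test as a gene, Tet1 was not above background in either group, and the brightest Mbd2 probe set differed little. By gene, taking the probe set with the highest mean, 4 of 7 were lower and 0 higher (limma, Benjamini-Hochberg adjusted p under 0.05 over all genes; 5 lower and 0 higher at an unadjusted p under 0.05). Over all 12393 genes, 40.6% passed the same test, 22.4% as lower and 18.2% as higher. The median log2 difference, enterocyte minus stem, was -1.58 over the 7 genes and -0.00261 over all genes. By probe set, 8 of 16 were lower and 1 was higher. Of all probe sets 37.3% passed, 19.6% as lower and 17.8% as higher. In 13 of 16 the arrays of the groups did not overlap, against 64.0% of all probe sets and 65.3% of all genes, so that separation alone says little here. Calls rested on both stem arrays: without stem replicate 1 or without stem replicate 2 no gene of the 7 passed (4 lower at an unadjusted p under 0.05 each time), and no gene of the whole table did by limma either (4675 and 4817 genes at an unadjusted p under 0.05). Of the 7, 3 were lower without enterocyte replicate 1 or without enterocyte replicate 2, with Dnmt3b lost (adjusted p = 0.0542 and 0.0589), and no probe set of the 16 passed in the fit of every probe set under any of the 4 omissions (7 to 9 lower and 1 to 2 higher at an unadjusted p under 0.05).

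**Figure D2:**
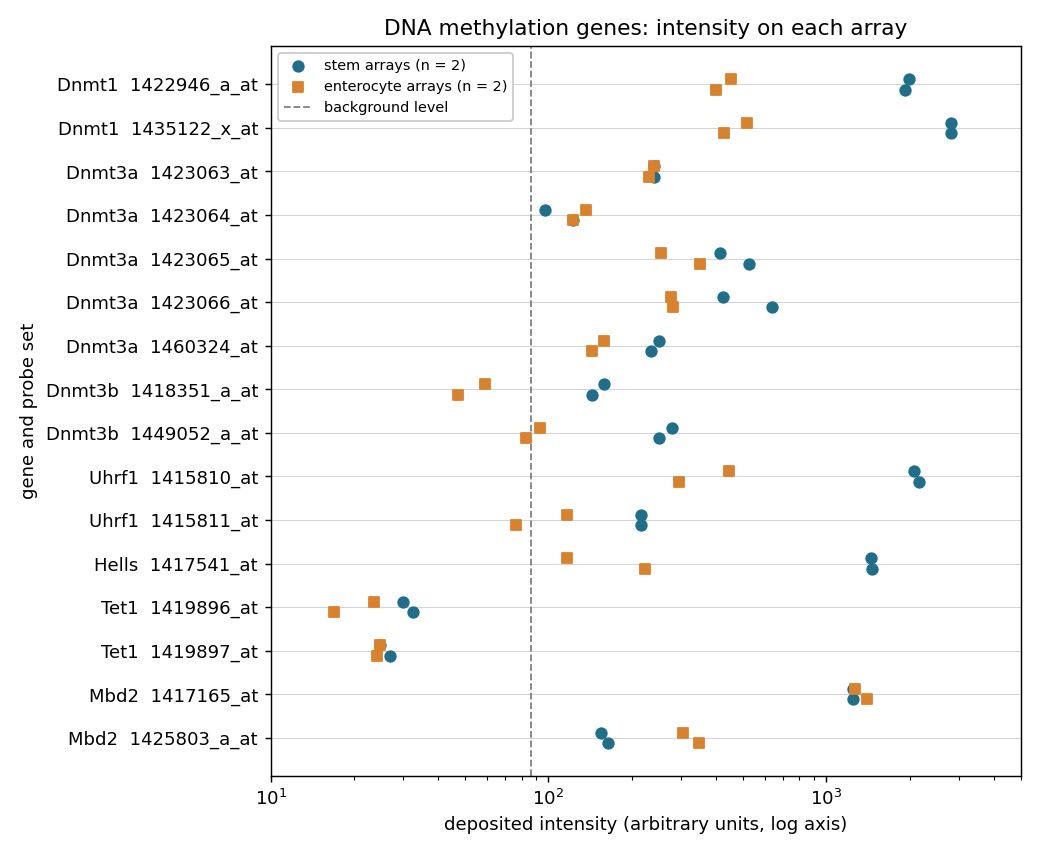
Deposited intensity of each of the 16 probe sets (rows) on each array, on a log axis; circles are the 2 stem arrays, squares the 2 enterocyte arrays, and the dashed line is the background level of 86.8. Stem arrays lie to the right of enterocyte arrays for Dnmt1, Dnmt3b, Uhrf1 and Hells, all Tet1 points lie left of the line, and coinciding points hide each other.

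Dnmt1, the enzyme that copies methylation to the new strand, was measured by 2 probe sets. On 1435122_x_at its intensity was 2804 and 2799.5 in stem cells against 517 and 427 in enterocytes. Both enterocyte arrays were far below both stem arrays, and the log2 difference was -2.58 ± 0.12 (SE, n = 2 arrays per group, limma adjusted p = 0.00329 over genes). The suffix x marks probe sets with probes that can also bind other transcripts. The other probe set, 1422946_a_at, gave 1981 and 1921 in stem and 454 and 400.3 in enterocyte arrays, a 4.58-fold fall (log2 difference -2.19 ± 0.09 SE, adjusted p = 0.00383 over probe sets). Both probe sets thus passed in the same direction.

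Uhrf1, which recognises half-methylated CpG, had intensities of 2071 and 2157 in stem and of 446 and 295 in enterocyte arrays on 1415810_at. The groups did not overlap, and the enterocyte arrays differed more from each other than the stem arrays did. The log2 difference was -2.54 ± 0.24 (SE, n = 2 per group, adjusted p = 0.00781 over genes). On 1415811_at the values were 215 and 216 in stem and 117 and 76.6 in enterocyte arrays, the last of them below the background level of 86.8. This probe set fell 2.28-fold (log2 difference -1.19 ± 0.25 SE, adjusted p = 0.0434 over probe sets). With the replicate number as a block, that last call was lost (adjusted p = 0.0588).

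Hells, a remodelling helicase of the SNF2 kind, had a single probe set, 1417541_at. It read 1452 and 1463 in stem cells against 117 and 223 in enterocytes. The stem arrays were nearly equal, while the enterocyte arrays lay far apart, though well below them. The log2 difference was -3.17 ± 0.37 (SE, n = 2 per group, adjusted p = 0.0115 over genes). It ranged from -3.64 without enterocyte replicate 2 to -2.71 without enterocyte replicate 1.

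Dnmt3b, which places new methylation, was low in enterocytes on both of its probe sets. On 1449052_a_at the intensity was 278 and 249.6 in stem and 93.4 and 83.2 in enterocyte arrays, so that the enterocyte arrays lay on either side of the background level. The log2 difference was -1.58 ± 0.10 (SE, n = 2 per group, adjusted p = 0.00462 over genes). On 1418351_a_at it was 159 and 144 in stem and 59.1 and 47.2 in enterocyte arrays, both of the latter below background. The fall on that probe set was therefore at least 1.74-fold (log2 difference -1.52 ± 0.15 SE, adjusted p = 0.00991 over probe sets).

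Dnmt3a, the other de novo enzyme, was measured by 5 probe sets that did not give 1 answer. The brightest, 1423066_at, read 425 and 635 in stem and 276 and 281 in enterocyte arrays. The groups did not overlap, but the stem arrays were far apart, and the log2 difference of -0.90 ± 0.23 (SE, n = 2 per group) did not pass (adjusted p = 0.0632 over genes). On 1423065_at the values were 414 and 528 in stem and 254 and 351 in enterocyte arrays, which also did not pass (log2 difference -0.65 ± 0.24 SE, adjusted p = 0.138 over probe sets). Only 1460324_at, at 249.9 and 234 in stem and 158 and 144 in enterocyte arrays, was called lower, by 1.60-fold (log2 difference -0.68 ± 0.08 SE, adjusted p = 0.0141 over probe sets). The remaining probe sets overlapped between groups. On 1423063_at 3 of the 4 arrays held the same value, 239, and enterocyte replicate 2 read 231. The 95% interval of the log2 difference ran from -0.19 to 0.14, and the equal stem values added no spread to it. On 1423064_at the arrays read 97.1 and 123 in stem and 136 and 123 in enterocyte, with an interval from -0.24 to 0.72. Which transcripts or which part of the gene each probe set reads is not given in the files used here. With its dimmest probe set the sign turned to 0.24, not past the threshold (adjusted p = 0.359 over genes). Dnmt3a as a gene passed as lower under 3 of 16 alternatives: the filter on dim genes (adjusted p = 0.0238), robust eBayes (0.0483) and reference gene centring (2.67e-07). That centring in effect used the level of Sdha alone, the median of the reference genes on every array. Under it limma gave all members the same SE of 0.279, so the last p holds no spread of Dnmt3a itself.

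**Figure D3:**
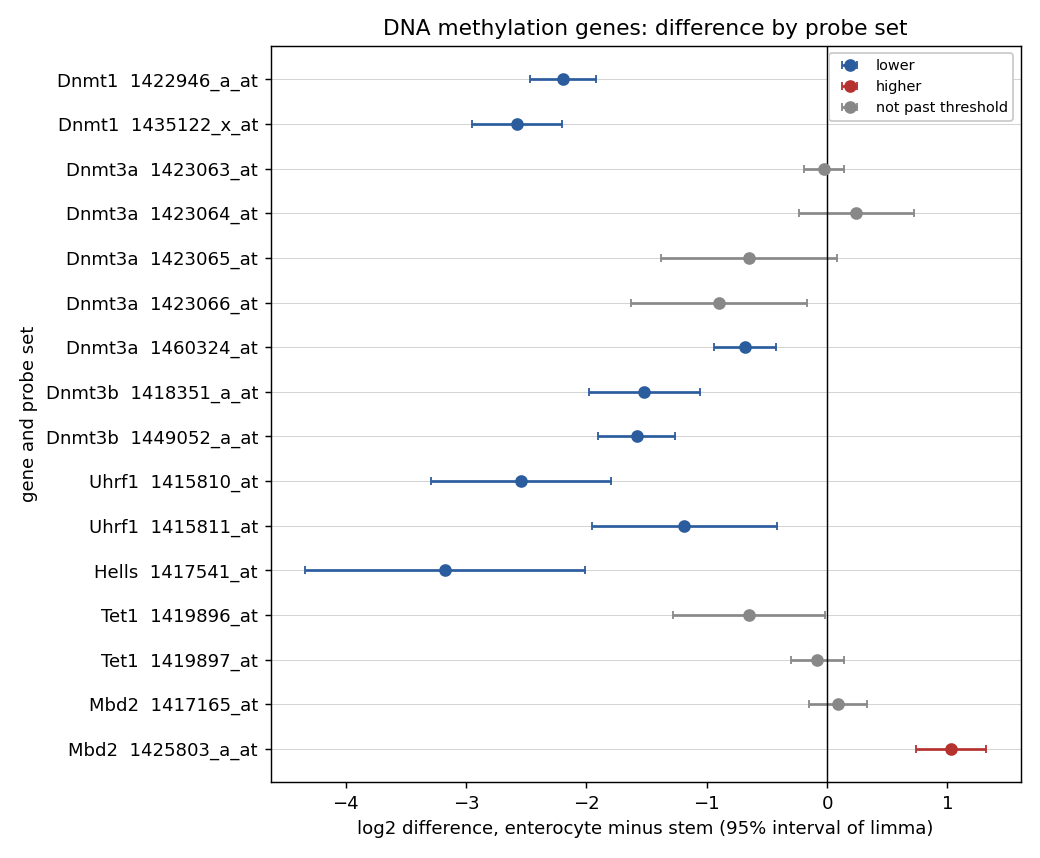
Log2 difference, enterocyte minus stem, for each probe set (rows), with the 95% interval of limma (n = 2 arrays per group); blue marks probe sets called lower, red higher, grey not past the threshold. Every interval of Dnmt1, Dnmt3b, Uhrf1 and Hells lies below 0, those of Dnmt3a scatter from -0.90 to 0.24 in their centres, and the 2 Mbd2 probe sets separate.

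Among the erasers, Tet1 was not above background in either group. Its probe set 1419897_at read 24.7 and 26.9 in stem and 24.7 and 24.1 in enterocyte arrays, and 1419896_at read 30.1 and 32.7 in stem and 23.6 and 16.9 in enterocyte arrays. Neither passed (log2 differences -0.08 ± 0.07 and -0.65 ± 0.20 SE, adjusted p = 0.453 and 0.103 over probe sets). No fold is given, since both groups lay below the background level, the 90th percentile of 40 genes of other organs. Such a reading bounds the signal of these probe sets and does not show that Tet1 RNA is absent. Reference gene centring lowers the difference of every gene alike and gave all members the same SE. Under it Tet1 passed as lower as a gene (adjusted p = 0.0248) and on both probe sets. Probe set 1419896_at also passed under quantile normalization (log2 difference -0.69, adjusted p = 0.0465 over probe sets).

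The probe sets listed for Tdg also match 2 of its pseudogenes, so their values cannot be given to Tdg alone. They were tested in a fit of all 22626 probe sets other than controls, chosen after the data were seen. On 1416790_a_at the arrays read 1051 and 1034 in stem and 941 and 963 in enterocyte, and on 1435715_x_at they read 1312 and 1278 in stem and 1261 and 1262 in enterocyte. Neither passed (log2 differences -0.13 ± 0.05 and -0.04 ± 0.05 SE, adjusted p = 0.151 and 0.599). On 1448462_at the values were 467 and 409 in stem and 657 and 718 in enterocyte arrays, a 1.57-fold rise (log2 difference 0.65 ± 0.10 SE, adjusted p = 0.0249). The 3 probe sets therefore disagreed, and no direction is given for Tdg.

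Mbd2, the reader, gave different results on its 2 probe sets. The brighter, 1417165_at, read 1251 on both stem arrays, equal values that add no spread, and 1265 and 1404 on the enterocyte arrays. Its log2 difference of 0.09 ± 0.08 (SE, n = 2 per group, adjusted p = 0.432 over genes) had a 95% interval from -0.15 to 0.33, and it turned to -0.06 under quantile normalization and to -0.53 under reference gene centring, neither past the threshold. The dimmer, 1425803_a_at, read 155 and 164 in stem and 305 and 347 in enterocyte arrays, a 2.04-fold rise (log2 difference 1.03 ± 0.09 SE, adjusted p = 0.00898 over probe sets) that was 0.41 and not past the threshold under reference gene centring (adjusted p = 0.181). With the mean over both probe sets, Mbd2 was called higher as a gene (log2 difference 0.56 ± 0.08 SE, adjusted p = 0.0166). Immune cell markers moved with this rise. Of 21 measured, 13 were higher in enterocyte arrays and 1 lower, and their summed intensity was 989 and 1091 in stem against 6996 and 9060 in enterocyte arrays. Most of the enterocyte sum came from 2 granzyme genes, Gzma at 3843.5 and 4968 and Gzmb at 1019 and 1444. The general leukocyte gene Ptprc was at least 6.26-fold higher, and the T cell genes Cd3d, Cd3e, Cd3g and Cd8a were also called higher. Not above background in either group were 7 of the list, among them Cd4, Cd8b1 and the B cell genes Ms4a1, Cd79a and Cd79b. Itgax, counted as higher, was another of these 7. Markers of tuft cells, a chemosensory type of the epithelium, moved the same way. Of 6 measured, 5 were higher and 0 lower, with summed intensities of 716 and 469.7 in stem against 3071 and 2024 in enterocyte arrays. Il25, counted as higher, was not above background in either group. The part of immune and tuft cells in the Mbd2 difference was not tested.

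Genes of S phase and proliferation moved with Dnmt1, Uhrf1 and Hells. For this list and those below, the shares over all genes were 22.4% lower and 18.2% higher. Of 25 measured S phase genes, 22 were lower in enterocyte arrays and 0 higher (limma). At an unadjusted p under 0.05, 24 were lower and 0 higher, and the median log2 difference was -1.61. Their summed intensity was 42108 and 40963 in stem against 12597 and 12247 in enterocyte arrays. Not all fell alike. Pcna gave 5559 and 5642 of that sum in stem and 4075 and 4205 in enterocyte arrays. Its fall was 1.35-fold (log2 difference -0.44 ± 0.05 SE). The proliferation marker Mki67 fell 11.9-fold (log2 difference -3.58 ± 0.29 SE), the DNA polymerase gene Pola1 at least 4.74-fold (-2.77 ± 0.43) and the replicative helicase gene Mcm7 5.77-fold (-2.53 ± 0.13). The part of the share of dividing cells in the fall of the maintenance genes was not tested. When each gene's log2 profile over the 4 arrays was centred on its own mean, the 5 genes with the smallest Euclidean distance to Dnmt1 were Mcm7, Pwwp3a, Smyd2, Slc1a5 and Gar1, at 0.06 to 0.08 log2 units. Uhrf1 ranked 49 of 12392 by that distance, Dnmt3b 746, Hells 802, Dnmt3a 2079, Tet1 5094 and Mbd2 7726. The nearest profiles to Tet1 were those of Flt1, Col11a1, Tll2, B3gnt9 and Pcdhb12, whose log2 differences ran from -0.09 to -0.07 and which were below background as well. With 4 arrays in 2 groups these distances mostly rank the size of the group difference.

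Other writers and maintenance partners were lower as well. Of 14 measured genes, 9 were lower and 0 higher (limma), at a median of -1.46. At an unadjusted p under 0.05, 11 were lower and 1 higher. Pcna is counted both here and in the S phase list. Trim28, a corepressor that protects methylation at imprinted sites, fell 5.76-fold (log2 difference -2.53 ± 0.16 SE). Cdca7l, a relative of the Hells partner Cdca7, fell 4.02-fold (-2.01 ± 0.14), and Cbx5, the heterochromatin protein HP1 alpha, fell 3.77-fold (-1.92 ± 0.09). Cdca7 itself, which brings Hells to chromatin and is named here beyond the rule after its values were seen, fell 3.76-fold (-1.91 ± 0.14). Zfp57, Dppa3 and the Dnmt3 cofactor gene Dnmt3l were not above background in either group.

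Among methyl-CpG readers and the NuRD complex that some of them recruit, 9 of 15 were lower and 0 higher (limma; 10 lower and 0 higher at an unadjusted p under 0.05), at a median of -0.80. Mbd4, a reader that is also a thymine glycosylase, fell at least 3.73-fold (log2 difference -2.21 ± 0.12 SE). The NuRD subunit gene Mta1 fell 4.17-fold (-2.06 ± 0.17) and the histone deacetylase gene Hdac2 fell 3.54-fold (-1.82 ± 0.10). Under reference gene centring, which rests on Sdha alone, 14 of the 15 were lower.

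In the list of demethylation and base excision repair, which also counts Mbd4, 12 of 17 were lower and 3 higher, at a median of -0.97. Ung, which removes uracil from DNA, fell 10.3-fold (log2 difference -3.36 ± 0.30 SE), and Apex1, which cuts the abasic site left by glycosylases such as Tdg, fell 5.82-fold (-2.54 ± 0.22). Among the rises, Apobec1, the cytidine deaminase that edits the Apob transcript in enterocytes, was 7.55-fold higher (2.92 ± 0.07). Idh1, a cytosolic source of the alpha-ketoglutarate that Tet enzymes need, was 4.47-fold higher (2.16 ± 0.19). Its relative Idh2, in the same list and named here beyond the rule, fell 1.79-fold (-0.84 ± 0.05). Apobec2 also passed as higher, though its mean was below the background level in each group (1.62 ± 0.27, limma adjusted p = 0.0245).

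In the S-adenosylmethionine cycle, which supplies the methyl group, 4 of 17 genes rose, 4 fell and the other 9 missed the threshold, at a median of 0.01. Over all genes 18.2% were higher and 22.4% lower, near these counts, which therefore say little about the cycle. That balance depended on the scaling, with 9 lower and 2 higher under reference gene centring, which rests on Sdha alone. Mtrr, which reactivates methionine synthase, fell at least 3.28-fold (log2 difference -2.24 ± 0.19 SE), Mtap, of methionine salvage, fell 2.22-fold (-1.15 ± 0.11), and Ahcy, which clears the by-product of methylation, fell 2.18-fold (-1.12 ± 0.12). Ahcyl2 and Ahcyl1, relatives of Ahcy, rose 5.12-fold (2.36 ± 0.07) and 2.08-fold (1.06 ± 0.16), and Mat2b, the regulatory subunit of the synthase, rose 3.16-fold (1.66 ± 0.12). In this list 7 genes were not above background in either group, among them the liver-type synthase gene Mat1a.

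**Figure D4:**
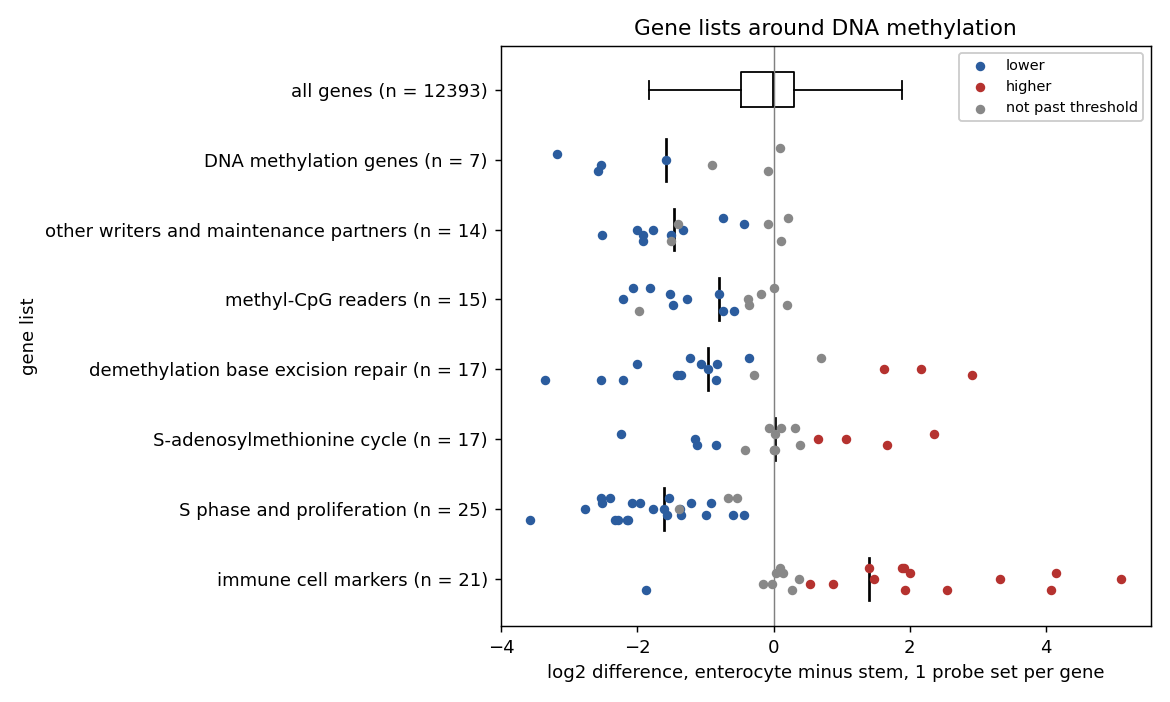
Log2 difference, enterocyte minus stem, of each measured gene (points, 1 probe set per gene) in the DNA methylation set and in 6 other lists, with black bars at the list medians; the box shows all 12393 genes with quartiles and whiskers at the 5th and 95th percentiles. Median bars lie at -1.58 for the DNA methylation genes, -1.61 for S phase genes, 0.01 for the S-adenosylmethionine cycle and 1.40 for immune cell markers.

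Markers of the labelled cells were checked. Atoh1 read 173 and 209 in stem and 33.4 and 38.7 in enterocyte arrays, at least 2.19-fold lower, and Lgr5 fell 24.9-fold; whether the Atoh1 probe set lies in the deleted part is not known. All 13 measured stem cell markers were lower and all 15 enterocyte markers higher in the enterocyte arrays. The stem arrays also held secretory RNA: the summed intensity of 4 Paneth cell markers was 30418 and 40260 in stem against 415 and 2975 in enterocyte arrays, and all 7 goblet cell markers and 8 of 12 enteroendocrine markers were lower in enterocytes. Stromal and endothelial markers were not above background in 14 of 17 cases. Control probe sets differed between the groups, with 18 of 64 apart by over 1 log2 unit in their group means. The log2 ratio of the 3′ to the 5′ control probe set was 1.70 and 1.92 in stem against 0.15 and 0.17 in enterocyte arrays for Gapdh, and 2.06 and 2.10 against 0.56 and 0.50 for Actb. This measure of RNA integrity and amplification thus moved with the groups beside every difference given here, and its part in them was not tested. Across genes, which are not independent replicates, arrays of a group correlated at r = 0.996 (stem) and 0.992 (enterocyte), and arrays of different groups at 0.890 to 0.898.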

How the data were processed

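RNA of 4 samples was measured on 1 Affymetrix array each, from 100 ng of total RNA, per the labels. The authors deposited linear intensity values, 1 for each probe set and array (7.93 to 41703.8, array medians 102.4 to 110.6); the tool named per the submitters' processing notes is RMA, without its version, and no build or between-array step is given in the sources used here. The design foresaw a linear table, and log2 was taken with no pseudocount. No column was without a sample (0). The platform annotation gave 1 symbol for 20380 probe sets, several for 691, and did not list 1606; 20351 matched GRCm38.p6 by Entrez identifier, with 0 symbols changed. Per gene, the probe set with the highest mean was used. Fits with limma 3.58.1 (R 4.3.3; lmFit, eBayes, two-sided) covered 12393 genes and 20380 probe sets, with Benjamini-Hochberg adjustment over each and a threshold of 0.05. They had 2 residual and, by gene, 1.23 prior degrees of freedom. The replicates' deposited values were exactly equal, with no tolerance, in 1268 genes (stem) and 1048 (enterocyte). The number of arrays limits the precision, and an exact permutation test of 2 arrays against 2 cannot reach the threshold.

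Background was set at log2 6.44 (intensity 86.8), the 90th percentile of 40 genes of other organs, of which 4 passed the threshold; a fold against a group below it is a bound, with that group's arrays raised to at least this level. Members, lists and tests were chosen with earlier results of these data known. Named were all members, up to 3 genes per direction of each list past the threshold, Atoh1 and Lgr5 as checks, some markers, and 5 profile neighbours of Dnmt1 and of Tet1. List genes beyond these are said to be so or are given as not above background. Pcna is named for a list overlap and its part of a sum, and Sdha for the centring. Fits were tested on simulated data. Alternatives covered the choice of probe set, pseudocount, a filter on dim features, quantile and reference gene normalization, variance model, array weights, replicate block and leaving out each array. Promoter sequences are from RefSeq (GRCm38.p6); Python 3.11.15 was used for them.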

Additional observations from a re-analysis of the deposited data

How the results depend on the processing

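Over 16 alternatives by gene, Dnmt1, Dnmt3b, Uhrf1 and Hells kept a negative difference throughout and passed the threshold in 14, 12, 13 and 14 of them; the lost calls were those without 1 array and, for Uhrf1, its dimmer probe set (adjusted p = 0.0538 by limma). Some alternatives could not move the differences of Dnmt1, Dnmt3b, Uhrf1 and Hells, so these counts overstate the number of separate checks. Hells has 1 probe set, so no choice of probe set changed its difference. For the others, mean and median over the probe sets gave equal differences. Leaving out probe sets that may cross-hybridise changed none of them, and for Dnmt1 the x probe set stayed in use. The number of members called higher was 1 in place of 0 (Mbd2) with the mean, the median or the dimmest probe set of a gene. Reference gene centring lowered every gene by 0.62 on the log2 scale (median of all genes -0.62, with 1148 higher and 6700 lower against 2257 and 2779), so that 13 of 16 member probe sets and 71 of the 86 companion genes were lower, and 0 and 5 higher; of the 9 reference genes used, 4 were higher and 1 lower before it. Leaving out 1 array gave 0 to 3 members lower by gene, 0 lower and 0 higher by probe set (7 to 9 and 1 to 2 at an unadjusted p under 0.05), and 0 to 30 lower and 0 to 2 higher among the 86 genes of the companion lists (54 and 7 with all arrays; 48 to 54 and 6 to 7 at an unadjusted p under 0.05). There the lone array is assumed to vary like the other group, and 1 residual degree of freedom is left. With the replicate number as a block, 4 members were lower by gene, 8 probe sets lower and 1 higher, and 53 companion genes lower and 7 higher. The block ended the call of Uhrf1 1415811_at and made one for Dnmt3a 1423065_at (adjusted p = 0.0335). Same-numbered arrays of the 2 groups deviated together only weakly (r = 0.05 across genes), and nothing in the labels ties them, so the numbers were not taken as pairs. Signals near background (Tet1, Dnmt3b in enterocytes) limit what can be read there.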

Other observations

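The 3 E2F motif forms found in the Dnmt1, Uhrf1 and Hells promoter windows were also counted over the other measured genes. That count was chosen after the data were seen. Measured genes with no promoter window listed under their symbol were left out. Of 348 other measured genes with a match in at least 1 promoter window, 40.2% were lower in the enterocyte arrays and 12.9% higher, at a median log2 difference of -0.35. Of 9533 measured genes without a match, 22.7% were lower and 19.0% higher, at a median of -0.00. These counts carry no test, and the windows also differ in CpG content and in the number of starts per gene.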
